A study of Mus musculus with 9 samples.

Results

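The mitochondrial protein import machinery was examined as a set of 41 protein-coding genes among 49315 gene IDs in RNA sequencing of sorted cells from co-cultures. The set was chosen by name and not by expression: every gene whose symbol starts with Timm or Tomm and a digit, and the subunits of the import motor, the matrix chaperonin, the presequence and inner membrane peptidases, the sorting and assembly complex and the oxidoreductase Chchd4. Gene names came from GENCODE M21 for GRCm38. Of the 41 genes, 39 passed the expression filter in all 3 comparisons. The exceptions were Timm8a2, with at most 1 count in any library, and Tomm20l, with at most 3.

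SB28 is a mouse glioblastoma (GBM) line that carries green fluorescent protein. It was cultured for 2 days with primary neonatal astrocytes from C57BL6 mice that carry mito::mKate2, a red fluorophore sent to mitochondria, and the cells were then separated by sorting. The 3 groups were untreated and held 3 libraries each: astrocytes, SB28 cells without mKate2 signal (mKate2- SB28 cells) and SB28 cells with it (mKate2+ SB28 cells). The comparison of the SB28 groups asks how tumor cells that acquired astrocyte mitochondria differ from tumor cells of the same cultures that did not. The comparisons with astrocytes set each SB28 group against the donor cells. SB28 is a single line, and the donor cells were cultured, not taken from adult brain.

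Almost all proteins of mitochondria are made in the cytosol and must be imported. The translocase of the outer membrane (TOM) is the common entry gate, the sorting and assembly machinery (SAM) inserts barrel-shaped proteins into the outer membrane, and small Timm chaperones escort hydrophobic cargo through the intermembrane space, where Chchd4 forms disulfide bonds. TIM22 inserts carriers into the inner membrane, TIM23 passes proteins with a presequence to the matrix, an Hsp70-driven motor pulls them in, peptidases remove the presequence, and the Hspd1 and Hspe1 chaperonin folds the product.

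Total counts ranged from 24454561 to 39287841 per library. The sorted populations were checked against fixed marker lists, in CPM, each gene's count relative to the library total, scaled by TMM, a normalization that aligns the bulk of the genes across libraries. The astrocyte libraries held Slc1a3 at 171 to 228 CPM and Apoe at 252 to 266 CPM, against at most 2.35 and 3.17 CPM in any SB28 library. In the same libraries Gfap was at 3.32 to 18.8 CPM and S100b at no more than 2.09 CPM. Not all listed markers were lower in SB28 cells. Gja1, the most abundant of the list over all 9 libraries, was at 195 ± 21.5 CPM in astrocytes, below Apoe. It was at 262 ± 21.8 and 286 ± 19.8 in the mKate2- and mKate2+ groups. Clu was at 95 ± 33.8 in astrocytes against 112 ± 19.5 and 114 ± 24.9. The whole list summed to 1110 ± 164 CPM in astrocytes, 477 ± 26.3 in the mKate2- group and 500 ± 28.6 in the mKate2+ group (SD, n = 3 each). The astrocyte libraries also held Olig1 at 234 to 546 CPM and Olig2 at 150 to 271 CPM, genes of the oligodendrocyte lineage, whereas the other lineage genes Sox10 and Mog were at or near 0. The summed oligodendrocyte lineage list was 593 ± 230 CPM in astrocytes and far lower in the tumor cells, with 22.0 ± 4.36 CPM in the mKate2- group and 19.4 ± 2.43 CPM in the mKate2+ group (SD, n = 3 each). Fibroblast and mural markers, led by Col1a2, summed to 1300 CPM in astrocytes, 755 in the mKate2- group and 701 in the mKate2+ group. In the same order, neuronal markers summed to 67.6, 23.2 and 19.0, microglial markers to 46.3, 53.8 and 59.1 and endothelial markers to 3.3, 1.08 and 1.27. The microglial sum was led by Tmem119, at 31.0, 51.1 and 56.0 CPM. Cd68 went the other way, at 13.2, 2.42 and 2.89 CPM, as did P2ry12, at 1.33, 0.0121 and 0.0278 CPM. Of the 8 listed microglial genes, 5 were under 0.5 CPM in astrocytes and 6 in each SB28 group.

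One library stood apart. In mKate2+ replicate 2, the median gene with less than 1000 exonic bases was 0.727 higher on the log2 scale than the mKate2- mean, and the median gene of at least 6000 bases was 0.171 lower. In the other 5 SB28 libraries the short genes lay between -0.0888 and 0.15. Results for mKate2+ cells include this library, and the value without it is added where a call was lost or a fold change moved by more than 1.5 times on the log2 scale.

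The promoters shown here belong to members on which the results turn. They are from RefSeq on GRCm38.p6 and hold 250 bases before and 50 bases after the annotated start, and 36 of the 41 members had an entry. The window of Hspe1 (chr1:55087898-55088197, plus strand) is shown because it shares 285 bases with 1 of the windows of Hspd1, which is read in the opposite direction. Its capitals mark 2 overlapping matches to a heat shock element, the units GAA, TTC and GAA with any 2 bases between neighbors. Timm8a1 (chrX:134541621-134541920, minus strand) had the highest fold over astrocytes, and its capitals mark 2 copies of CACGTG, the palindromic E-box. Tomm70a (chr16:57121464-57121763, plus strand) had the smallest P value over astrocytes in both SB28 groups and held neither motif.
Hspe1: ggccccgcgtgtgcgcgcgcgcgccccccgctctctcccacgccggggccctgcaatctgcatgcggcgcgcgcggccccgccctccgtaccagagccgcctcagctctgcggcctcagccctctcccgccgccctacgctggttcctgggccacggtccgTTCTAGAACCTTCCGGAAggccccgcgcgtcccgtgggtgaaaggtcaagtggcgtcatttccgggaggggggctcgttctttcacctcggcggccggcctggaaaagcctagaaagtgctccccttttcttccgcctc
Timm8a1: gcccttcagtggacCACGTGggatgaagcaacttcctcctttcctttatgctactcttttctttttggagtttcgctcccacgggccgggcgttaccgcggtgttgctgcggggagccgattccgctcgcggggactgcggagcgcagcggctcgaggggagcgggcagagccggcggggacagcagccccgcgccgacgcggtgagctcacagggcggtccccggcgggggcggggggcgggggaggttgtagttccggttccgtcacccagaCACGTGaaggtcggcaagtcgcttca
Tomm70a: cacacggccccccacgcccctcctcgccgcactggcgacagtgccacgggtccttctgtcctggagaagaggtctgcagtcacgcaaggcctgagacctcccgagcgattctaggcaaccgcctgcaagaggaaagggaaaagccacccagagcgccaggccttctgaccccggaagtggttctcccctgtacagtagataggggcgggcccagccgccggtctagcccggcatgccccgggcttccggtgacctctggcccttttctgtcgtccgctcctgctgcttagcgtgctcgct
Both strands were searched. CACGTG was in the windows of 6 of the 36 members (16.7%) and in 7.15% of 32851 promoters, and the heat shock element was in 3 of 36 (8.33%) and in 0.603% of promoters. Its first pair of units alone, GAA and TTC, was in the same 3 windows and in 7.86% of promoters, and CCAAT was in 13 of 36 (36.1%) and in 37.4%. The 6 members with CACGTG were Hspd1, in the window of its second annotated start, Timm8a1, Timm9, Timm10, Tomm20 and Tomm20l. The 3 with the heat shock element were Hspd1, Hspe1 and Timm9. In Hspd1 and Hspe1 these are the same bases of the shared window, read from opposite strands, so 1 stretch counted for 2 members. A member counted if any of its windows held the motif, whereas the background is a share of promoters. The NRF1 palindrome, GCGC, AT and GCGC without a gap, was in no member window and in 0.971% of promoters, and CCGGAAGT, an ETS-family motif, was in 8 of 36 (22.2%) and in 3.89%. The motifs were chosen after the values were seen, and a match is a string of letters, not a binding site.

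Import transcripts took a larger share of the SB28 libraries than of the astrocyte libraries. The summed CPM of the 41 genes was 2756, 2527 and 2219 in the astrocyte libraries, 4258, 3781 and 4345 in the mKate2- libraries and 4337, 4628 and 4492 in the mKate2+ libraries. The lowest SB28 library thus lay above the highest astrocyte library. The group means were 2500 ± 269 CPM in astrocytes, 4130 ± 304 in mKate2- cells and 4490 ± 146 in mKate2+ cells (SD, n = 3 each), or 1.65-fold and 1.80-fold the astrocyte mean. These are shares of each library: in bulk samples, fewer cells of a type and less RNA per cell cannot be told apart. The summed cycling markers Mki67, Top2a, Ccnb1 and Cdk1 were also higher in SB28 cells. They were at 405 ± 103 CPM in astrocytes, 1050 ± 47.8 in mKate2- cells and 972 ± 176 in mKate2+ cells. Over astrocytes, all 4 were higher in mKate2- cells and 3 of 4 in mKate2+ cells at an adjusted P value below 0.05. Within the groups the order of libraries differed. The library with the highest import sum, mKate2+ replicate 2, had the lowest cycling sum of the SB28 libraries, at 782 CPM. Astrocyte replicate 3, with the lowest import sum, had the highest cycling sum of the astrocyte libraries, at 524 CPM. The part of the cycling markers in the result was not tested, nor was that of the oligodendrocyte lineage genes.

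**Figure D1:**
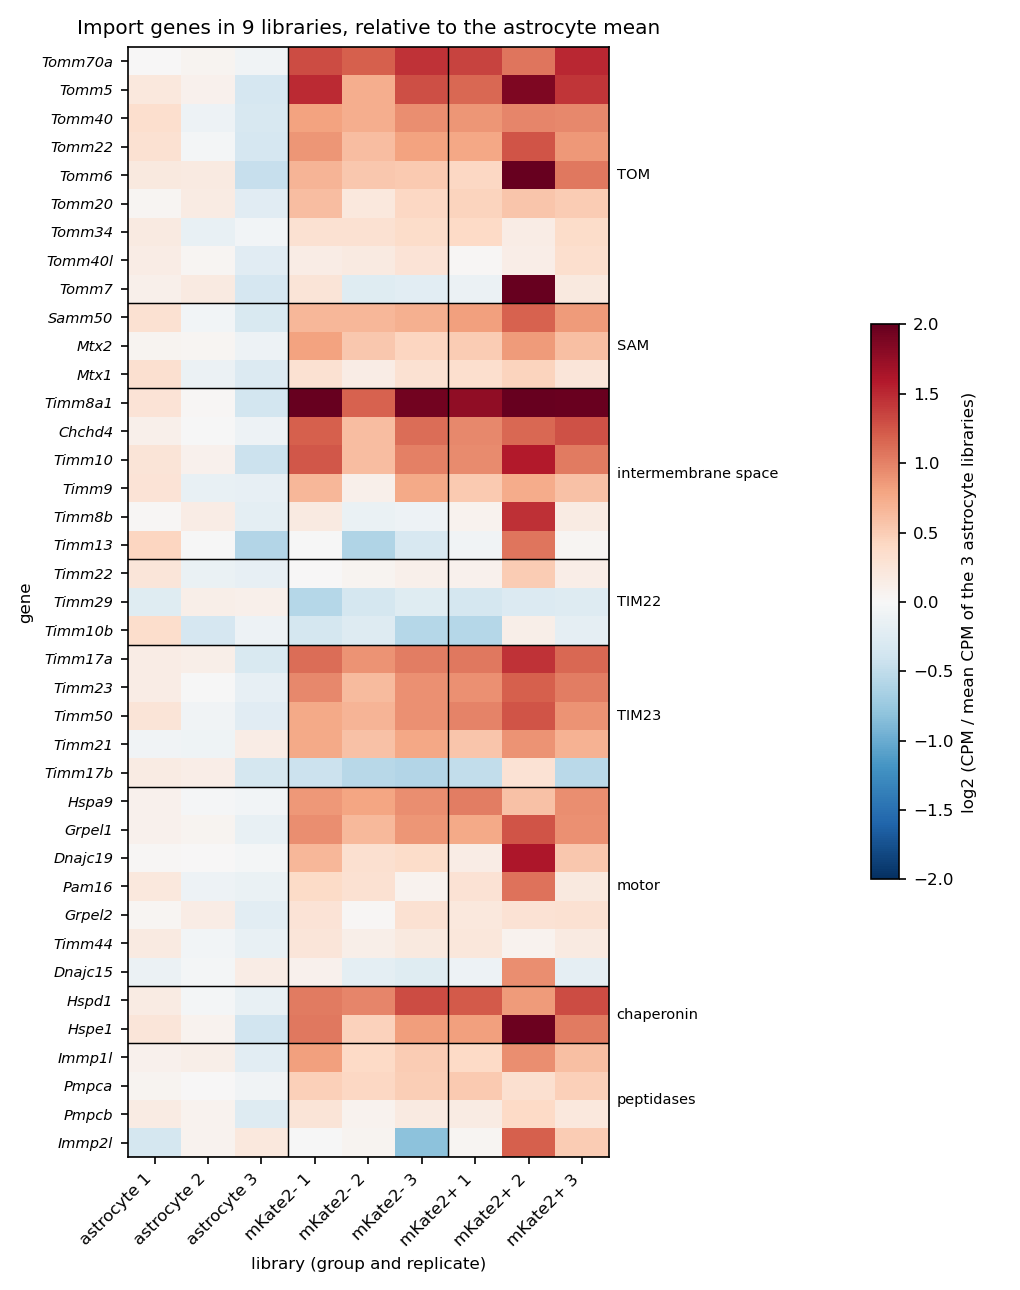
Level of the 39 expressed import genes in each of the 9 libraries, as log2 of CPM over the mean CPM of the 3 astrocyte libraries; rows are genes grouped by role, columns are libraries, and colors saturate at 2 in either direction. Most rows are red in all 6 SB28 libraries, the TIM22 rows are not, and mKate2+ replicate 2 is the darkest column for short genes such as Tomm7 and Hspe1.

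Across the whole table, the edgeR quasi-likelihood test with Benjamini-Hochberg adjustment placed 22 of the 39 members higher in mKate2- cells than in astrocytes at an adjusted P value below 0.05 (56.4%) and 1 lower. The background was 29.3% higher and 33.8% lower of 13356 genes tested. In mKate2+ cells, 22 members were higher (56.4%) and 0 lower, against a background of 28.0% and 32.1% of 13342 genes. DESeq2 gave 24 higher and 0 lower of 41 there, where all genes, with those of low counts included, gave 14.6% and 19.4%. At an unadjusted P value below 0.05, 0 members were lower by edgeR (background 34.2%). There 1 was lower with upper-quartile scaling (37.3%), in a fit to all 9 libraries (36.0%), without astrocyte replicate 1 (34.2%) and without mKate2+ replicate 2 (4371 of 13286 genes). When mKate2+ replicate 2 was left out, 20 members were higher (51.3%, against 26.1% of all genes) and 0 lower, with Timm9 and Tomm6 the calls that were lost. The median log2 fold change of the members was 0.54 for the mKate2- group and 0.71 for the mKate2+ group, while that of all genes tested was -0.04 and -0.02. All 3 mKate2- libraries were above all astrocyte libraries for 24 members and below for 1, Timm17b (background 34.0% and 36.9%). The mKate2+ libraries were above for 25 and below for 1, Timm29 (background 32.9% and 35.4%). Both comparisons use the same astrocyte libraries.

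Fewer members passed a 2-fold threshold. With an absolute log2 fold change above 1 in addition, 6 members were higher in mKate2- cells (15.4%, background 11.5%) and 11 in mKate2+ cells (28.2%, background 12.2%), and none was lower in either, where the background was 22.4% and 22.8%. The 6 were Chchd4, Hspd1, Timm17a, Timm8a1, Tomm5 and Tomm70a. Chchd4 and Timm17a lay at the fold threshold and dropped out without astrocyte replicate 3 and without mKate2- replicate 1. The 4 then left were 10.3% of the members, against 12.2% and 10.8% of all genes. Without astrocyte replicate 1 the count was 8 (20.5%, against 11.6%). The mKate2+ list added Hspe1, Timm10, Timm23, Timm50 and Tomm6. Without mKate2+ replicate 2 it held the same 6 as in mKate2- cells (background 1585 of 13286 genes higher). The median in mKate2+ cells was then 0.51.

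Levels were compared between genes in TPM, counts per exonic length scaled to a fixed total per library. The chaperones led: Hspd1 had a mean of 718 TPM over the 9 libraries, Hspa9 459 and Hspe1 291. By the same mean, the most abundant subunits of the other complexes were Tomm22 at 201 TPM (240 ± 16.6 in mKate2+ cells and 132 ± 17.1 in astrocytes, where Tomm20 was at 140 ± 29.1; SD, n = 3 each), Timm23 at 158, Timm8b at 134, Pmpca at 126, Samm50 at 65.2 and Timm29 at 46.7. The lowest tested members were Dnajc15 at 3.94 TPM and Immp2l at 3.11.

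Of the 9 tested Tomm genes, grouped here with the outer membrane gate, 6 were higher in mKate2- cells (background 29.3%) and 6 in mKate2+ cells (background 28.0%). The 6 in mKate2- cells include Tomm34, which is cytosolic. Tomm70a, the receptor for carrier precursors and chaperone-bound cargo (chr16:57121703-57156705, plus strand), was at 130, 135 and 124 CPM in astrocytes, 320, 298 and 353 in mKate2- cells and 332, 271 and 369 in mKate2+ cells. All 6 SB28 libraries were at least as high as 271 CPM and no astrocyte library exceeded 135. Its log2 fold change over astrocytes was 1.32 ± 0.11 (SE) in mKate2- cells (adjusted P = 4.15e-05, edgeR) and 1.32 ± 0.15 in mKate2+ cells (adjusted P = 0.000227). Tomm5, a small subunit that stabilizes the channel, was at 23.7, 21.7 and 16.2 CPM in astrocytes, 57.5, 33.8 and 50.2 in mKate2- cells and 45.3, 75.3 and 55.2 in mKate2+ cells. Every SB28 library was above the astrocytes while the SB28 groups overlapped each other, and the log2 fold changes were 1.20 ± 0.23 and 1.51 ± 0.23 (edgeR adjusted P = 0.0025 and 0.000952).

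The channel itself, Tomm40 (chr7:19701313-19715438, minus strand), was at 123, 90.4 and 78.0 CPM in astrocytes, 169, 161 and 186 in mKate2- cells and 180, 191 and 189 in mKate2+ cells. It was higher by 0.83 ± 0.17 and 0.95 ± 0.17 on the log2 scale (edgeR adjusted P = 0.00378 and 0.00231). It lies 2124 bases from Apoe, which went the other way, from 260 ± 7.16 CPM in astrocytes to 2.82 ± 0.311 in mKate2- cells (SD, n = 3 each). The central receptor Tomm22 was higher by 0.78 and 0.98, with edgeR adjusted P values of 0.00476 and 0.00371. The presequence receptor Tomm20 was higher by 0.43 and 0.50 (edgeR adjusted P = 0.0364 and 0.0142), a smaller step. Tomm7, another small subunit, had log2 fold changes of -0.04 and 1.03 with edgeR adjusted P values of 0.861 and 0.129, and the second was 0.055 ± 0.21 without mKate2+ replicate 2 (edgeR adjusted P = 0.833). The small subunit Tomm6, at 0.59 and 1.34 (edgeR adjusted P = 0.114 and 0.0355), had 0.78 ± 0.37 in mKate2+ cells without that library (edgeR adjusted P = 0.118). The Tomm6 gene shares 1648 bases with the protein-coding gene Gm21981 on the same strand, and the part of this overlap in its counts was not tested. Tomm40l and the cytosolic co-chaperone Tomm34 lay between 0.17 and 0.33. Of these, Tomm34 passed in mKate2- cells at an edgeR adjusted P value of 0.0391 and missed it in mKate2+ cells at 0.0839.

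In the SAM complex, the barrel-forming core Samm50 was at 112, 87.1 and 73.6 CPM in astrocytes and 144, 144 and 149 in mKate2- cells. The lowest SB28 value was above the highest astrocyte value, and the log2 fold changes were 0.68 ± 0.16 and 0.97 ± 0.18 in mKate2- and mKate2+ cells (edgeR adjusted P = 0.00601 and 0.00276). Its partner Mtx2 was also higher, by 0.61 and 0.66 (edgeR adjusted P = 0.00421 and 0.00372). Mtx1 did not pass, with 0.26 and 0.35 (edgeR adjusted P = 0.195 and 0.11), and its gene shares 11658 bases with Thbs3 on the opposite strand.

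The intermembrane space held the largest fold and also some of the smallest. Timm8a1, the mouse counterpart of the deafness-dystonia protein (chrX:134537256-134541865, minus strand), was at 6.52, 5.45 and 4.16 CPM in astrocytes, 21.4, 12.2 and 20.5 in mKate2- cells and 18.3, 25.4 and 21.1 in mKate2+ cells. Every SB28 library was above every astrocyte library. The log2 fold changes were 1.75 ± 0.27 and 2.01 ± 0.23, or 3.36-fold and 4.02-fold (edgeR adjusted P = 0.000943 and 0.000241). Chchd4, which drives the disulfide relay that traps these chaperones, was higher by 1.00 ± 0.17 and 1.13 ± 0.14 (edgeR adjusted P = 0.00157 and 0.000407), and Timm10 by 0.98 ± 0.26 and 1.22 ± 0.27 (edgeR adjusted P = 0.0111 and 0.0055). Timm9, which forms a hexamer with Timm10, had 0.54 ± 0.24 and 0.62 ± 0.20, and passed the test in the latter (edgeR adjusted P = 0.082 and 0.0294). Without mKate2+ replicate 2 the latter was 0.57 ± 0.23 (edgeR adjusted P = 0.0776). Timm8b and Timm13 did not pass in either, with -0.01 and -0.28 in mKate2- cells and 0.71 and 0.44 in mKate2+ cells. The last 2 values were 0.12 and -0.0092 without mKate2+ replicate 2.

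In TIM22, 0 of the 3 genes were called higher in either SB28 group (background 29.3% and 28.0%). The complexes were not tested against each other. Timm22, the pore, was at 27.7 ± 4.52 CPM in astrocytes, 28.8 ± 0.93 in mKate2- cells and 33.1 ± 5.66 in mKate2+ cells (SD, n = 3 each). Timm29, which helps TIM22 assemble, was at 45.5, 58.6 and 58.1 CPM in astrocytes, 36.3, 42.6 and 45.6 in mKate2- cells and 42.5, 44.6 and 45.2 in mKate2+ cells. The mKate2+ libraries were all below the astrocytes and the mKate2- libraries overlapped them by a narrow margin, with log2 fold changes of -0.30 ± 0.14 and -0.38 ± 0.14 (edgeR adjusted P = 0.105 and 0.0508). Timm10b, the chaperone docked on TIM22, had -0.18 and -0.38 in the same order, with edgeR adjusted P values of 0.573 and 0.183. The Timm10b gene shares 3086 bases with the protein-coding gene Gm45799 on the same strand. Without mKate2+ replicate 2, Timm22 had 0.12 and Timm10b -0.35 in mKate2+ cells, and neither passed. The summed CPM of the 3 genes was 0.852-fold and 0.939-fold the astrocyte mean in mKate2- and mKate2+ cells, whereas that of the 5 TIM23 genes was 1.74-fold and 2.02-fold.

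Within TIM23, 4 of 5 genes were higher in both SB28 groups (background 29.3% and 28.0%) and 1, Timm17b, was lower in mKate2- cells (background 33.8%). The channel Timm23 was at 62.1, 55.8 and 50 CPM in astrocytes, 109, 87.1 and 106 in mKate2- cells and 105, 128 and 114 in mKate2+ cells. All SB28 libraries were above the astrocytes, at 0.85 ± 0.13 and 1.05 ± 0.13 (edgeR adjusted P = 0.000845 and 0.000393). The receptor Timm50 was higher by 0.80 ± 0.15 and 1.06 ± 0.16, and Timm21, which links TIM23 to the respiratory chain, by 0.71 ± 0.14 and 0.72 ± 0.16 (edgeR adjusted P of the 4 values between 0.00101 and 0.00676).

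The paralogs of the TIM23 core differed. Timm17a (chr1:135295213-135313778, minus strand) was at 116, 114 and 85.0 CPM in astrocytes, 227, 195 and 213 in mKate2- cells and 219, 286 and 232 in mKate2+ cells. Timm17b (chrX:7899357-7908351, plus strand) was at 31.7, 31.0 and 22.2 CPM in astrocytes, 21.1, 19.2 and 18.9 in mKate2- cells and 20.1, 34.7 and 19.5 in mKate2+ cells. Timm17a was thus above the astrocytes in all 6 SB28 libraries, and Timm17b was below them in 5, with mKate2+ replicate 2 as the exception. The log2 fold changes were 1.01 ± 0.14 and 1.23 ± 0.17 for Timm17a (edgeR adjusted P = 0.000573 and 0.000595) and -0.52 ± 0.17 and -0.19 ± 0.26 for Timm17b (edgeR adjusted P = 0.0268 and 0.539). In mKate2+ cells without replicate 2, Timm17b had -0.51 ± 0.20 (edgeR adjusted P = 0.0691). Its call in mKate2- cells lay close to the threshold. With 5 libraries it was kept without astrocyte replicate 3 and lost without any 1 of the others, where the log2 fold change ranged from -0.437 to -0.564 and the edgeR adjusted P value from 0.0549 to 0.0908. A fit to all 9 libraries did not call it lower and called Timm29 in its place.

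**Figure D2:**
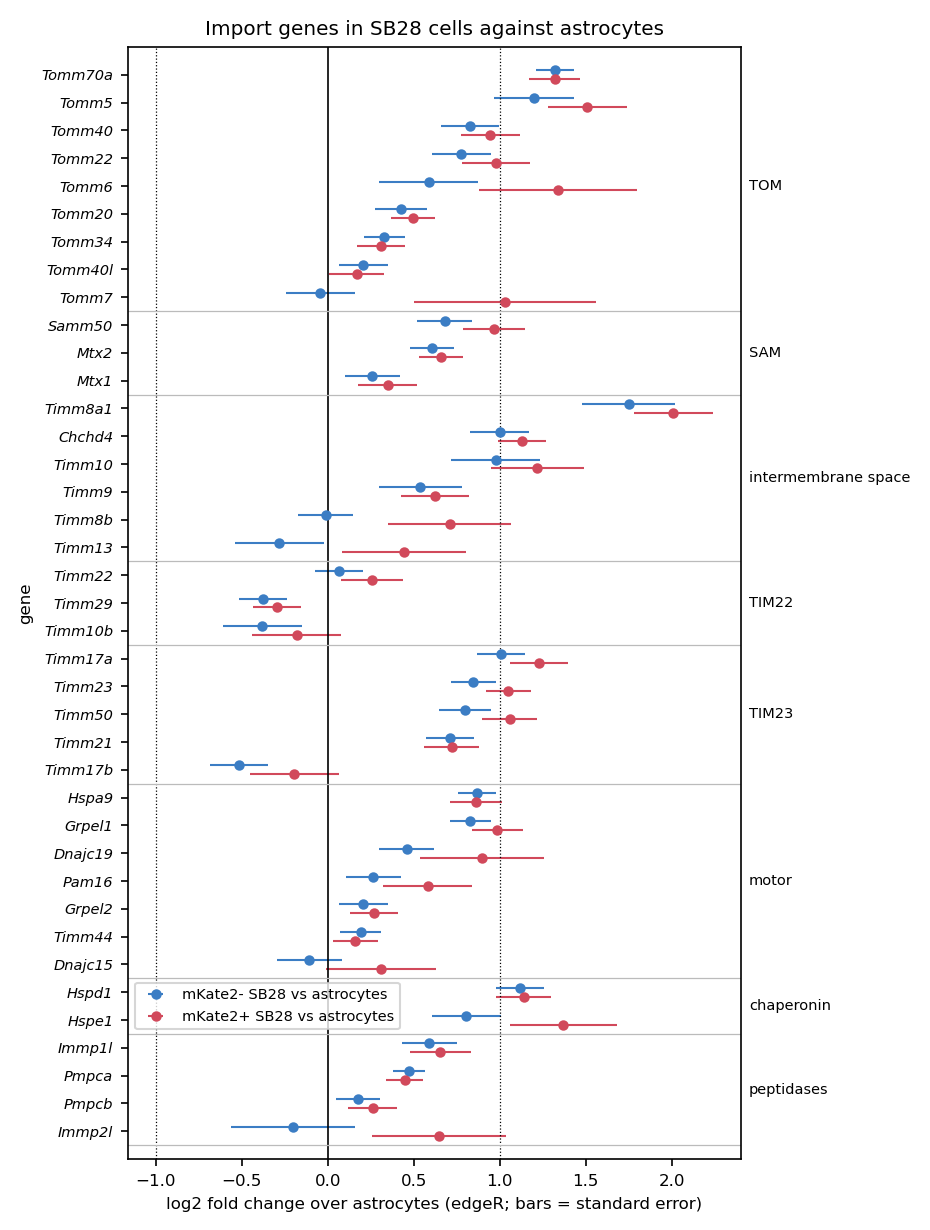
Log2 fold change over astrocytes of each import gene in mKate2- SB28 cells (blue) and mKate2+ SB28 cells (red), with points for the edgeR estimate, bars for its standard error and dotted lines at -1 and 1. Timm8a1 lies farthest to the right, at 1.75 and 2.01, and Timm17b, Timm29 and Timm10b lie to the left of 0 in both.

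In the import motor, Hspa9 (mortalin), the matrix Hsp70 that pulls the chain in, was at 426, 396 and 388 CPM in astrocytes, 738, 694 and 770 in mKate2- cells and 822, 606 and 772 in mKate2+ cells. It was apart from the astrocytes in every library, with log2 fold changes of 0.87 ± 0.11 and 0.86 ± 0.15 (edgeR adjusted P = 0.000272 and 0.00198). Its nucleotide exchange factor Grpel1 was higher by 0.83 ± 0.12 and 0.99 ± 0.15 (edgeR adjusted P = 0.000614 and 0.00104), while the second exchange factor Grpel2 had 0.21 and 0.27 and did not pass (edgeR adjusted P = 0.233 and 0.126). The tether Timm44 (0.19 and 0.16), the regulator Pam16 (0.27 and 0.58) and the J protein Dnajc15 (-0.11 and 0.31) did not pass either, and the mKate2+ values of the last 2 were 0.25 and -0.14 without replicate 2. The J protein Dnajc19 had 0.46 and 0.90 with edgeR adjusted P values of 0.0376 and 0.0617, the second value being 0.36 ± 0.20 without mKate2+ replicate 2 (edgeR adjusted P = 0.177). Its gene shares 14303 bases with Fxr1 on the opposite strand.

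Both chaperonin genes were higher. Hspd1, whose product forms the folding chamber (chr1:55077835-55088243, minus strand), was at 373, 326 and 301 CPM in astrocytes, 684, 659 and 825 in mKate2- cells and 783, 604 and 820 in mKate2+ cells. Hspe1, its lid (chr1:55088132-55091307, plus strand), was at 94.8, 84.4 and 61.8 CPM in astrocytes, 167, 110 and 143 in mKate2- cells and 142, 314 and 165 in mKate2+ cells. Neither gene overlapped between astrocytes and SB28 cells, and mKate2+ replicate 2 was the lowest SB28 library for Hspd1 and the highest for Hspe1. The log2 fold changes were 1.12 ± 0.14 and 1.14 ± 0.16 for Hspd1 (edgeR adjusted P = 0.000289 and 0.000742) and 0.81 ± 0.20 and 1.37 ± 0.31 for Hspe1 (edgeR adjusted P = 0.00927 and 0.00675). The genes stand head to head on the shared promoter printed above and overlap by 112 bases.

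Among the peptidases, Pmpca, the substrate-recognizing subunit of the presequence peptidase, was higher by 0.47 ± 0.09 and 0.45 ± 0.11 (edgeR adjusted P = 0.0028 and 0.0111). Its catalytic partner Pmpcb had 0.18 ± 0.13 and 0.26 ± 0.14 and did not pass (edgeR adjusted P = 0.263 and 0.141). Of the inner membrane peptidase, Immp1l was higher by 0.59 ± 0.16 and 0.66 ± 0.18 (edgeR adjusted P = 0.0128 and 0.0146), and Immp2l, a gene with no more than 3.74 CPM in any library, had -0.20 ± 0.36 and 0.65 ± 0.39, the latter 0.29 ± 0.36 without mKate2+ replicate 2.

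When each library was left out in turn, 17 of the 22 calls in mKate2- cells and 18 of the 22 in mKate2+ cells were kept in all 6 fits. In mKate2- cells, Dnajc19 lost its call in 6 of 6 fits (adjusted P = 0.0526 to 0.151) with log2 fold changes of 0.355 to 0.524. Tomm34 lost it in 5 (up to 0.141, without astrocyte replicate 2) with 0.244 to 0.346. Tomm20 lost it in 4 (up to 0.137, without mKate2- replicate 1) with 0.322 to 0.438. Without mKate2- replicate 1, Timm10 (0.0512) and Immp1l (0.0531) also lost it, with log2 fold changes of 0.824 and 0.465. In mKate2+ cells, Timm9 lost its call in 5 of 6 fits (up to 0.0984, without astrocyte replicate 2) with log2 fold changes of 0.531 to 0.666. Tomm6 lost it in 5 (up to 0.118, without mKate2+ replicate 2) with 0.78 to 1.47. Pmpca lost it without mKate2+ replicate 1 (0.0535) and Tomm20 without mKate2+ replicate 3 (0.05), with log2 fold changes of 0.403 and 0.497. These are edgeR values, and each fit had 1 library less to estimate the spread from.

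Ratios within a library do not depend on its scaling, and 9 pairs of related or partner genes were fixed for this purpose. The log2 ratio of Timm17a to Timm17b was 1.88, 1.87 and 1.94 in astrocytes, 3.43, 3.34 and 3.50 in mKate2- cells and 3.45, 3.04 and 3.57 in mKate2+ cells. The spread within astrocytes was 0.0371 (SD), and the shift was 1.52 and 1.46. Tomm40 to Tomm40l moved from 2.12 ± 0.184 to 2.76 ± 0.0544 and 2.92 ± 0.143, and Grpel1 to Grpel2 from 0.529 ± 0.087 to 1.15 ± 0.0403 and 1.23 ± 0.222 (SD, n = 3 each). Timm8a1 to Timm8b shifted from -1.85 ± 0.234 to -0.114 ± 0.37 and -0.406 ± 0.565. Dnajc15 to Dnajc19 went down, from -0.234 ± 0.17 to -0.796 ± 0.0377 and -0.774 ± 0.262.

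In all, 6 of the 9 ratios did not overlap between mKate2- cells and astrocytes and 5 of 9 between mKate2+ cells and astrocytes, the sixth being Pmpca to Pmpcb. A 2-sided exact permutation test gave P = 0.1 for each of these, the smallest that 3 against 3 libraries allow, and Benjamini-Hochberg adjustment over the 9 pairs gave 0.15 and 0.18. No ratio passed 0.05. Other gene pairs were not counted. Against astrocytes, 34.0% of single genes were above and 36.9% below without overlap in mKate2- cells, and 32.9% and 35.4% in mKate2+ cells. None of the 9 ratios was without overlap between mKate2+ and mKate2- cells, and Hspd1 to Hspe1 was 0.944 in mKate2+ replicate 2 against 2.47 and 2.31 in the other mKate2+ libraries.

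**Figure D3:**
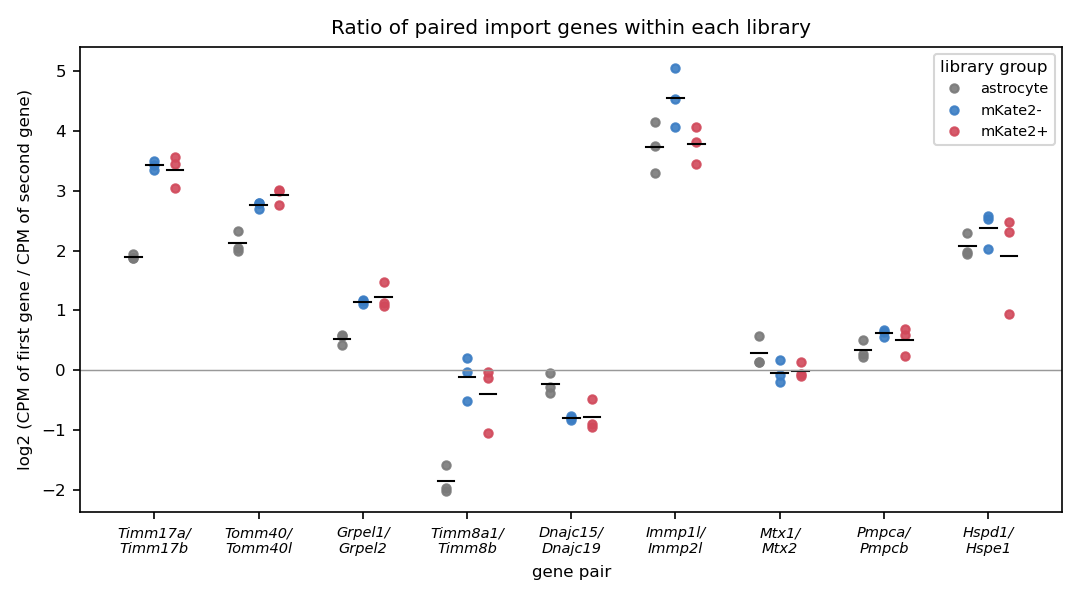
Log2 ratio of CPM of 9 gene pairs within each library (points, colored by group, with the group mean as a black line). The Timm17a to Timm17b ratio lies near 1.90 in astrocytes and near 3.42 and 3.35 in the SB28 groups, and the Hspd1 to Hspe1 ratio has 1 low mKate2+ point at 0.944.

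Between mKate2+ and mKate2- SB28 cells, no import gene differed at an adjusted P value below 0.05 by edgeR, where the background was 0.0% of 11854 genes, and the smallest adjusted P value was 0.923. DESeq2 also gave 0. At an unadjusted P value below 0.05, 2 members were higher and 0 lower by edgeR (background 0.759% and 1.27%) and 3 higher by DESeq2 (background 0.877%). By edgeR the count higher was 8 without mKate2+ replicate 1 (background 4.44%), 5 without replicate 3 (3.20%), 0 without replicate 2 (0.398%) and 12 with no filter on low counts (3.23%). It was 1, 0 and 0 without mKate2- replicates 1, 2 and 3 (0.442%, 0.220% and 0.408%). The study's criteria for these groups were a count above 50 together with a fold change above 1.5 at an unadjusted P value below 0.05, with the count read here as the normalized mean over 6 libraries. By them 1 member was higher, Timm13, and 0 were lower, against a background of 0.194% and 0.169%. The call depended on the fit: by the same criteria DESeq2 called Immp2l and Tomm6, a fit to all 9 libraries Immp2l and Tomm7, and a fit with the replicate number as a block Immp2l, and none of these called Timm13.

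Timm13, a small chaperone that pairs with the Timm8 proteins, was at 48.3, 31.9 and 38.6 CPM in mKate2- cells and 45.9, 101 and 49.5 in mKate2+ cells. A single mKate2+ library was high and the other values overlapped. The log2 fold change was 0.72 ± 0.31 (edgeR adjusted P = 0.923), and without mKate2+ replicate 2 it was 0.245 ± 0.15 (edgeR adjusted P = 1.0). The call was also lost without mKate2- replicate 2 and without mKate2- replicate 3. The other member at an unadjusted P value below 0.05 was Samm50, at 144, 144 and 149 CPM in mKate2- cells and 161, 207 and 164 in mKate2+ cells. It was not below that threshold when any 1 of the mKate2- libraries was left out. It was the only member without overlap (1 of 39 above and 0 below, background 5.46% and 3.88%), with a log2 fold change of 0.27 ± 0.11 (edgeR adjusted P = 0.923) that was 0.14 ± 0.064 without mKate2+ replicate 2 (edgeR adjusted P = 1.0).

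Most members had a positive log2 fold change in mKate2+ cells, 33 of 39, against 50.9% of all genes, and 26 of 39 without mKate2+ replicate 2, against 48.3%. Their median was 0.19 against 0.0033 for all genes tested. The members' median was 0.031 without mKate2+ replicate 2 and 0.083 without mKate2- replicate 2. The library mKate2+ replicate 2 was the highest of the 6 SB28 libraries for 27 of the 39 members, against 32.0% of all genes, and the lowest for 6, against 33.3% of all genes. At the other end, mKate2- replicate 2 was the lowest for 19 members, against 17.5% of all genes, and the highest for 0. Tomm7 was at 27.8, 19.8 and 20.1 CPM in mKate2- cells and 21.6, 95.3 and 26.6 in mKate2+ cells, and Hspe1 at 167, 110 and 143 and at 142, 314 and 165. In both genes replicates 1 and 3 of the mKate2+ group lay inside the mKate2- range. Their log2 fold changes were 1.07 ± 0.53 and 0.55 ± 0.30 with all libraries and 0.071 ± 0.16 and 0.11 ± 0.15 without mKate2+ replicate 2.

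**Figure D4:**
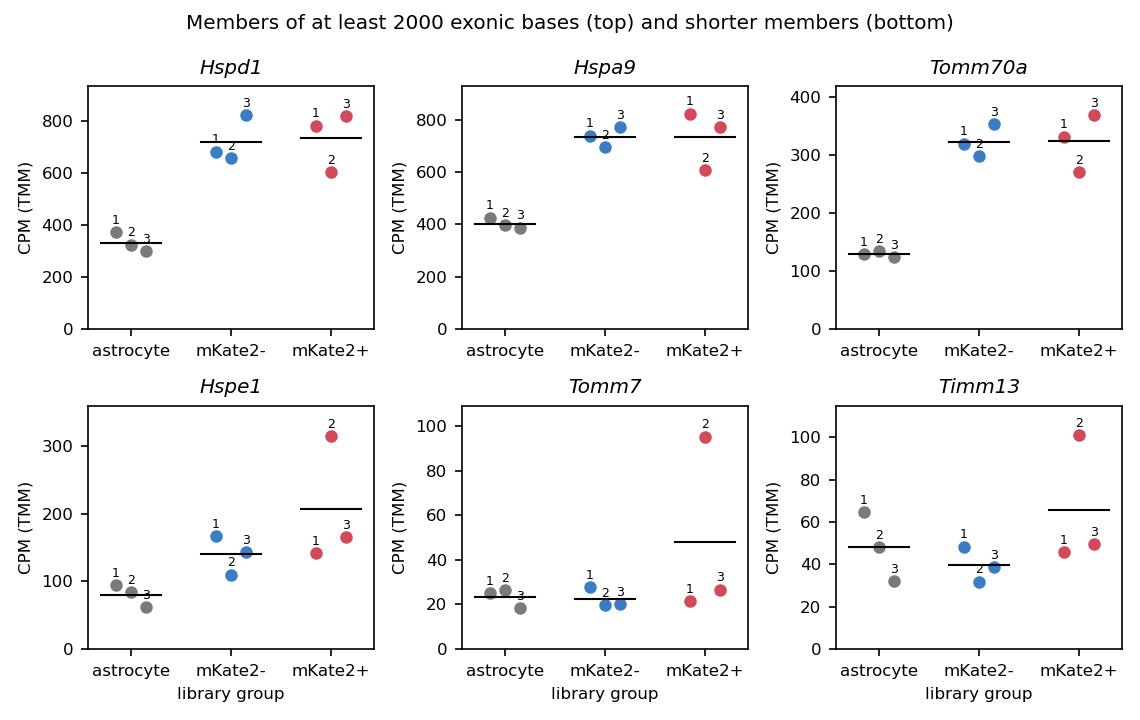
CPM in each library of 3 members with at least 2000 exonic bases (Hspd1, Hspa9 and Tomm70a, top) and 3 shorter members (Hspe1, Tomm7 and Timm13, bottom); numbers mark replicates and lines the group means. The shorter members have 1 high mKate2+ library, replicate 2, which is the lowest mKate2+ library of the longer members.

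The 6 largest log2 fold changes between the SB28 groups, from 0.55 to 1.07, were those of members under 2000 exonic bases, none of them past the adjusted threshold. Longer members followed, with Dnajc19 at 0.43, Dnajc15 at 0.41, Timm17b at 0.315 and Pam16 at 0.309. These 4 were -0.134, -0.057, -0.022 and -0.046 without mKate2+ replicate 2, and the 6 shorter members were between 0.071 and 0.459. The 12 members under 2000 exonic bases had a median log2 fold change of 0.43 between mKate2+ and mKate2- cells, and the 27 longer members 0.076. Over all genes the medians were 0.161 under 2000 bases and -0.0102 for longer genes. Over the 39 members, Spearman's rho of fold change with length was -0.501, and over 11840 genes it was -0.424, a description across genes that share libraries. Without mKate2+ replicate 2 the members' medians were 0.10 and 0.011 and their rho was -0.218, against a rho of -0.115 over all genes. Among longer, abundant members, Hspd1 was at 0.01 ± 0.14, Hspa9 at -0.02 ± 0.12, Tomm70a at -0.01 ± 0.13, Tomm20 at 0.06 ± 0.12, Samm50 at 0.27 ± 0.11 and Timm17a at 0.20 ± 0.12 (SE) with all libraries. In the same order they were at 0.125, 0.094, 0.090, 0.023, 0.136 and 0.066 without mKate2+ replicate 2.

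**Figure D5:**
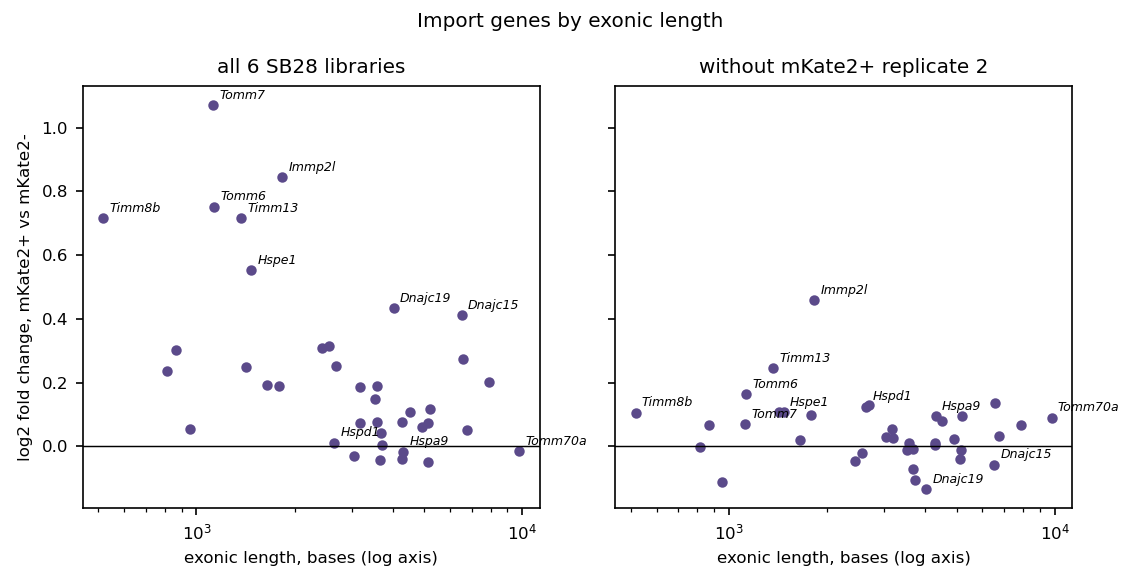
Log2 fold change between mKate2+ and mKate2- SB28 cells of the 39 import genes against exonic length on a log axis, with all 6 libraries (left) and without mKate2+ replicate 2 (right). Of the short genes at the upper left, Tomm7 goes from 1.07 to 0.071 on the right, where Immp2l and Timm13 are the highest, at 0.459 and 0.245.

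Leaving out the other mKate2+ libraries moved the count the other way. By the study's criteria it was 7 without replicate 1 (Dnajc19, Hspe1, Immp2l, Timm13, Timm8b, Tomm6 and Tomm7), where the background was 2.63%, 3 without replicate 3 (background 1.97%) and 0 without replicate 2 (background 0.0508%). The share of counts from the 13 mitochondrially encoded mRNAs, the proteins of which do not need import from the cytosol, was 1.76%, 2.91% and 3.13% in astrocytes, 0.998%, 0.839% and 1.23% in the mKate2- group and 1.37%, 0.552% and 1.51% in the mKate2+ group. The library with the highest summed import CPM, mKate2+ replicate 2, had the lowest share. Its rank by import genes depended on the scale: they took 0.425% of its raw counts, below the 0.432% and 0.443% of the other mKate2+ libraries, and 3763 TPM, the lowest of the 6 SB28 libraries. The part of RNA quality and of library preparation in these values was not tested.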

How the data were processed

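Gene expression was measured by RNA sequencing in 9 libraries. The deposited values are the authors' raw counts of reads per gene, without normalization; per the labels and the submitters' processing notes, reads were trimmed (Trimmomatic 0.36), mapped to GRCm38 (STAR 2.5.2b) and counted (featureCounts, Subread 1.5.2), and the strand setting is not given in the sources used here. The series description stains the astrocytes with CellTrace Violet but writes the dye into the sort gates of the tumor cells, so libraries were taken by their names. Replicates came from 3 distinct co-cultures.

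Each comparison used its 6 libraries, TMM normalization, genes above 1 CPM in at least 2 libraries and edgeR's quasi-likelihood test (edgeR 4.0.16, R 4.3.3), with Benjamini-Hochberg adjustment over all genes tested; DESeq2 1.42.0 was the alternative, and scripts were tested on simulated data. SE is the log2 fold change over the root of the test statistic. CPM was scaled over all 9 libraries, and TPM used GENCODE M21 exonic lengths. Of the members, 28 overlap another annotated gene, and 11 pseudogenes bear their names, with at most 125 counts. The members and lists were chosen with earlier results of these data known. Genes named with all values are those past a threshold, those with the smallest P values by comparison, the fixed pairs and the most and least abundant of a role.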

Additional observations from a re-analysis of the deposited data

How the results depend on the processing

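No result changed sign past its threshold in the alternatives run. The import genes' median log2 fold change over astrocytes stayed between 0.435 and 0.622 in mKate2- cells and between 0.513 and 0.803 in mKate2+ cells. The counts that moved by more than 1.5 times were small ones. The 1 member called between mKate2+ and mKate2- cells was Timm13. DESeq2 called 2 (Immp2l and Tomm6) and a fit to all 9 libraries 2 (Immp2l and Tomm7), both without Timm13, and with no filter on low counts 5 were called, Timm13 among them. The count was 0 with the trend on gene length removed, alone or with the replicate block. With the trend alone removed, Timm13 had a log2 fold change of 0.534. It still passed the unadjusted P threshold but fell short of the fold change of 1.5. Leaving out each library gave 0 to 7. The 23 genes called higher over the whole table became 50 with DESeq2, 224 with no filter, 41 in the fit to all 9 libraries, 13 with the block, 12 with the length trend removed, 10 with both, 310, 6 and 233 without mKate2+ replicates 1, 2 and 3, and 15, 10 and 16 without mKate2- replicates 1, 2 and 3. Against astrocytes, the 1 member lower in mKate2- cells became 2 with upper-quartile scaling, the replicate block, the length trend removed or both of these, where 36.2%, 32.5%, 34.4% and 33.0% of all genes were lower; the second was Timm8b with the length trend alone and Timm29 in the others. It became 0 with no filter (19.7%). The fit to all 9 libraries called 1, Timm29 and not Timm17b. The range on leaving out libraries was 0 to 1. In mKate2+ cells the 0 members lower became 1 with upper-quartile scaling (Timm29), where 34.9% of all genes were lower. On leaving out libraries the range was 0 to 1. The 11 past the 2-fold threshold ranged from 6 without mKate2+ replicate 2 (1585 of 13286 genes) to 16 without mKate2+ replicate 1 (1646 of 13270 genes). The median of all genes over astrocytes was -0.118 with upper-quartile scaling in both SB28 groups, and the members' medians were 0.457 and 0.612; with DESeq2 and with no filter, where genes of low counts enter, that of all genes was between -0.244 and -0.186. The cause of the moves was not tested.

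The replicate numbers were checked for pairing over 13450 genes. Deviations of same-numbered mKate2- and mKate2+ libraries from their group means correlated at -0.0037, 0.136 and 0.17, and not every library correlated best with its own number, and the sources used here say that the groups came from 3 co-cultures but not that a number marks one, so the numbers were not taken as pairs. With the replicate block, 20 members were higher in mKate2- cells and 21 in mKate2+ cells than in astrocytes, instead of 22 and 22 (28.8% and 26.1% of all genes, instead of 29.3% and 28.0%), and 1 was called between the SB28 groups, Immp2l in place of Timm13. Depth limits the lowest members: Immp2l had a mean of 66.4 normalized counts in the SB28 libraries, and Timm8a2 and Tomm20l did not pass the filter.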

Other observations

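The naming rule left out 12 further import genes. Of these, 6 rose and 2 fell over astrocytes in each SB28 group at an adjusted P value below 0.05 (edgeR), against 29.3% and 33.8% of all genes in mKate2- cells and 28.0% and 32.1% in mKate2+ cells. Oxa1l, which inserts mitochondrially made proteins into the inner membrane, was at 108, 79.3 and 66.7 CPM in astrocytes, 42.6, 42.2 and 43.7 in mKate2- cells and 49.0, 53.1 and 45.5 in mKate2+ cells, a fall of all 6 libraries below the astrocytes, with log2 fold changes of -0.98 ± 0.17 and -0.78 ± 0.18 (edgeR adjusted P = 0.00181 and 0.00761). Mtx3, a relative of the metaxins Mtx1 and Mtx2, had -0.79 ± 0.16 and -0.90 ± 0.24 (edgeR adjusted P = 0.00353 and 0.0134). The presequence-degrading peptidase Pitrm1 was higher by 0.87 and 0.86 (edgeR adjusted P = 0.00019 and 0.000516).

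Among 14 other matrix chaperones and inner membrane proteases, 9 were higher and 1 lower in mKate2- cells and 9 were higher and 0 lower in mKate2+ cells, 64.3% higher in both, beside the same background. Oma1, a stress-activated protease, was at 17.3, 17.1 and 15.1 CPM in astrocytes, 41.1, 36.5 and 38.6 in mKate2- cells and 45.9, 44.3 and 40.4 in mKate2+ cells. It was past the 2-fold threshold in both, at 1.23 ± 0.12 and 1.40 ± 0.13 (edgeR adjusted P = 0.000111 and 0.000124). Past it in mKate2+ cells were also the prohibitins Phb2 (1.18) and Phb (1.06) and the protease Htra2 (1.11). Romo1 was at 17.9, 12.5 and 13.0 CPM in mKate2- cells and 15.5, 75.3 and 16.6 CPM in mKate2+ cells, with 1 high library, mKate2+ replicate 2.

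Over astrocytes, 28 of 78 mitochondrial ribosome genes rose and 1 fell in the mKate2- group (35.9% up, median log2 fold change 0.31; background 29.3%), and 36 rose and 0 fell in the mKate2+ group (46.2%, median 0.67; background 28.0%). Without mKate2+ replicate 2 the latter were 28 (35.9%, median 0.37; background 26.1%). Between mKate2+ and mKate2- cells the median of this list was 0.21, and that of 94 cytosolic ribosomal protein genes was 0.53. They were 0.034 and 0.033 without mKate2+ replicate 2.

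CACGTG was in the promoter window of 4 of the 20 members with a window that were higher in mKate2- cells than in astrocytes and of 1 of the 14 others, and in mKate2+ cells of 5 of 20 and 0 of 14. The first split includes Tomm20, which lost its call in 4 of 6 fits with a library left out, and Timm10, which lost it in 1. The latter split includes Timm9, which lost its call in 5 of 6 such fits, and Tomm20, which lost it in 1. The heat shock element was in 2 of 20 and 1 of 14 in mKate2- cells and in 3 of 20 and 0 of 14 in mKate2+ cells. Hspd1 and Hspe1, which hold the same matched bases, count separately among the 2 and among the 3. No test was run, since the motifs were chosen after the values were seen.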
